A study of Arabidopsis thaliana with 20 samples.

Results

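The comparison described here set Arabidopsis thaliana plants that carry a PPD3 overexpression transgene and look normal (genotype PPD3-OX T+, phenotype normal; called T+ normal, n = 3) against large plants of a transgene-free descendant line (genotype PPD3-OX null Gen2, phenotype large; called Gen2 large, n = 3). These are the 6 samples of 20 in which neither side is dwarf and neither is wild type. T+ dwarf (PPD3-OX T+, phenotype dwarf, n = 3), Gen2 dwarf (PPD3-OX null Gen2, phenotype dwarf, n = 5) and wild type (WT, n = 3) are given beside them where they place a gene. Every sample has Col-0 as its source name (the ecotype field of WT 3 reads Col-1), was taken at bolting and holds the aboveground parts of the plant. Gen2 descends from Gen1, the transgene-free siblings of the T+ plants, so the transgene, the generation and the size label all differ between T+ normal and Gen2 large and cannot be told apart. The labels call the samples biological replicates, but they name neither the promoter of the transgene nor the number of lines or of plants in a sample, so what the p-values rest on is the spread between samples of unknown make-up. In whole tissue, fewer cells of a type and less RNA per cell cannot be told apart. Of the 34262 genes in the deposited tables, 21703 passed the filter on low counts and were tested.

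PPD3 is a member of the PsbP-domain family, proteins of the thylakoid lumen that are related to a subunit of the oxygen-evolving complex of photosystem II. Plastids are not only the site of photosynthesis: they also sense light, sugar and redox state, and signals from them change nuclear genes for defence, nutrient use and growth. In shoots, genes that answer carbon shortage, sulfur shortage and light are among those that move fastest, and anthocyanin synthesis is switched by a small set of MYB and bHLH factors and by repressors that compete with them.

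T+ normal had totals of 80377820 to 89686295 gene counts and Gen2 large had 68860129 to 103536631. T+ normal 1, on which several values below rest in part, lay apart from all other samples in a principal component analysis, at 68.31 on the first component and -57.12 on the second. The summed level of the floral organ and pollen markers was 1.66 to 2.51 CPM (counts scaled to a common library total) in T+ normal and 2.33 to 3.82 CPM in Gen2 large, and that of the root markers was 31.3 to 45.9 CPM in T+ normal and 39 to 48.9 CPM in Gen2 large. None of the 10 floral or 6 root markers tested was called (medians -0.54 and -0.21), and the floral sum was at most 3.82 CPM in the 6 samples.

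PPD3 itself (AT1G76450, chromosome 1, 28684551 to 28686244 in TAIR10.1) stood at 812, 636 and 652 CPM in T+ normal, against 133, 148 and 147 CPM in Gen2 large. All 3 T+ normal samples were far above all 3 Gen2 large samples, and the WT samples, at 118, 93.9 and 125 CPM, lay just below Gen2 large. The fitted level was 4.91 times as high in T+ normal as in Gen2 large. This ratio comes from the fitted log2 difference of 2.30 ± 0.19 (SE; adjusted p = 5.25e-06, edgeR quasi-likelihood test). PPD3 overlaps AT1G76460 on the map, and reads from the overlap cannot be assigned by strand. MSH1 (AT3G24320), a protein of plastid and mitochondrial DNA maintenance, had 18.2, 15.8 and 11.5 CPM in T+ normal and 15.3, 14.3 and 17.1 CPM in Gen2 large. Its values overlapped (log2 difference -0.04 ± 0.15, adjusted p = 0.954).

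At an adjusted p below 0.05 by the edgeR test, 68 of 21703 genes were called (0.313%), 60 of them higher in T+ normal (0.276%) and 8 lower (0.0369%). At an unadjusted p below 0.05 there were 2380 genes, and DESeq2 called 376, all 68 among them. The 60 higher genes spanned log2 differences of 0.59 to 3.35 and the 8 lower ones -0.60 to -3.77, and 47 of the 68 differed by more than 2-fold. In each of the 68 the 3 values of T+ normal lay outside the 3 of Gen2 large, which was also so for 17.8% of all tested genes. Within T+ normal the higher genes followed one order of samples: T+ normal 2 had the lowest level in 55 of the 60 and T+ normal 3 the highest in 44. The median log2 difference of all tested genes was -0.004.

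The calls depended on single libraries. Refits without 1 sample gave 25, 167 and 28 calls when T+ normal 1, 2 or 3 was left out, and 21, 13 and 20 calls when Gen2 large 1, 2 or 3 was left out. All 68 genes kept their sign in these 6 fits, and 11 were called in each of them: PPD3, AT2G20670, AT3G07350, AT4G32480, KMD4, AT1G23390, AT3G18773, RMA1, MYBL2, AT1G04770 and AT5G60680. The other 57 lost their call in 1 or more of the 6.

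**Figure D1:**
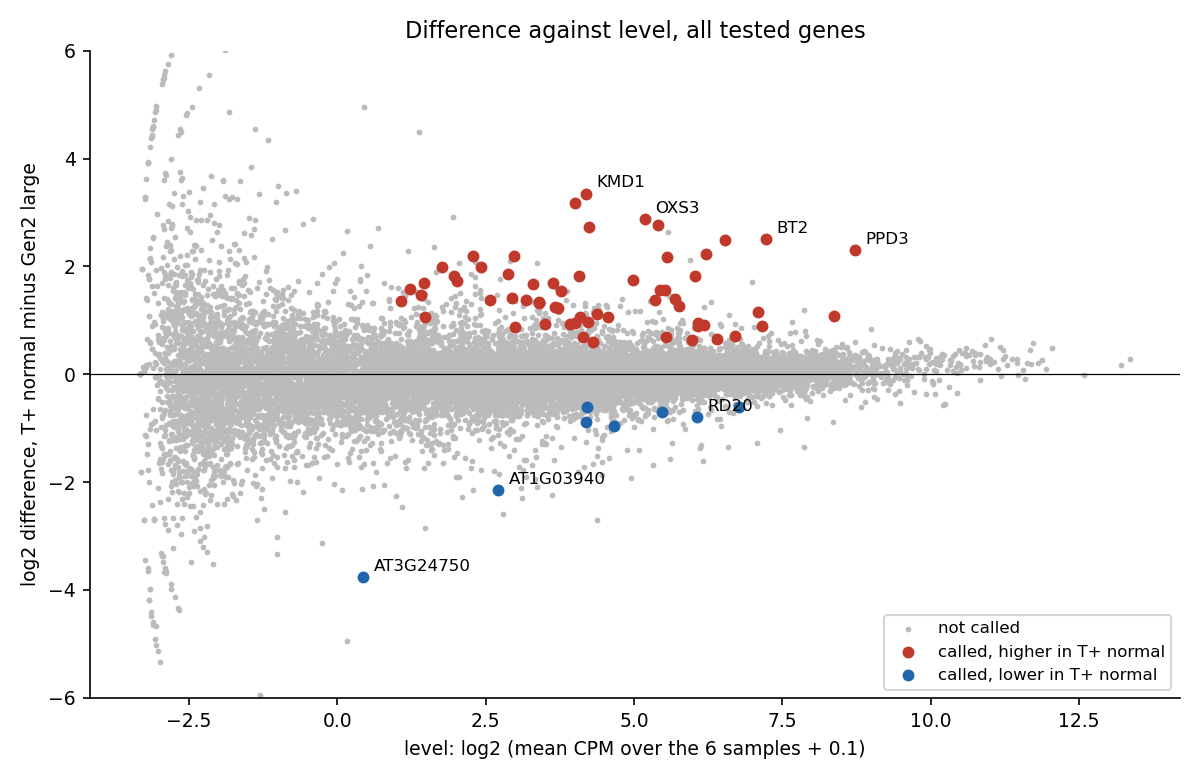
Log2 difference, T+ normal minus Gen2 large (y axis), against the level as log2 of mean CPM plus 0.1 over the 6 samples (x axis), 1 point per tested gene; 9 genes lie outside the plotted range of -6 to 6. The 60 genes called higher (red) spread over most of the range of levels, and the 8 called lower (blue) sit mostly within 1 log2 unit of 0, apart from AT1G03940 and AT3G24750.

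The largest increase was that of KMD1. KMD1 (AT1G80440), a Kelch-repeat F-box protein that marks cytokinin response regulators and phenylalanine ammonia-lyases for degradation, had 31.4, 20.9 and 46.9 CPM in T+ normal, against 3.51, 2.91 and 3.32 CPM in Gen2 large. AT2G20670, a protein with a DUF506 domain, had 24.2, 15.8 and 46.4 CPM in T+ normal, against 3.09, 3.39 and 3.04 CPM in Gen2 large. In both, the Gen2 large samples were nearly alike and every T+ normal sample was several times higher. The log2 differences were 3.35 ± 0.49 for KMD1 (SE; adjusted p = 0.0052) and 3.18 ± 0.40 for AT2G20670 (adjusted p = 0.00112). KMD1 was not called without Gen2 large 2 (adjusted p = 0.061).

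OXS3 (AT5G56550), a nuclear protein that raises tolerance to oxidative stress, had 84.5, 36.5 and 70 CPM in T+ normal, against 11, 8.38 and 6.5 CPM in Gen2 large. BT2 (AT3G48360), a BTB and TAZ domain scaffold protein that responds to sugar and nitrogen, had 282, 154 and 326 CPM in T+ normal, against 45.6, 41.4 and 47.6 CPM in Gen2 large. Its relative BT5 (AT4G37610) had 34.3, 23.5 and 40.9 CPM in T+ normal, against 5.49, 5.08 and 4.29 CPM in Gen2 large. T+ normal 2 was the lowest carrier for all 3 genes and still lay well above Gen2 large. The log2 differences were 2.88 for OXS3 (adjusted p = 0.00739), 2.50 for BT2 (adjusted p = 0.0469) and 2.73 for BT5 (adjusted p = 0.0459). BT2 and BT5 were each called in only 1 of the 6 fits without 1 sample, with an adjusted p of up to 0.225 for BT2 and 0.211 for BT5, and OXS3 was called in 4.

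The other genes among the 12 largest increases were AT5G19120, an aspartyl protease family protein (log2 difference 2.77), AT5G21940, of unknown function (2.49), the wax regulator DEWAX (2.22), AT3G07350, a second DUF506 protein (2.20), AT3G18773, a RING-finger protein (2.19), and AT1G23390 (2.18). AT1G23390 is a Kelch-repeat F-box protein that marks chalcone synthase, the first enzyme of flavonoid synthesis, for degradation. It had 70.7, 50 and 110 CPM in T+ normal, against 14.8, 14.6 and 21.7 CPM in Gen2 large, and was called in all 6 fits without 1 sample (adjusted p = 0.00319 with all samples). AT5G19120 and AT5G21940 were called in 4 of those fits. BT5, AT5G21940 and AT3G18773 overlap an annotated neighbour, so part of their counts is uncertain, and the same holds for KMD3, KMD4, RMA1, WRKY33, WRKY40, WRKY53, BAM9, RVE1, RCA, GDH3, CAO and FER1.

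**Figure D2:**
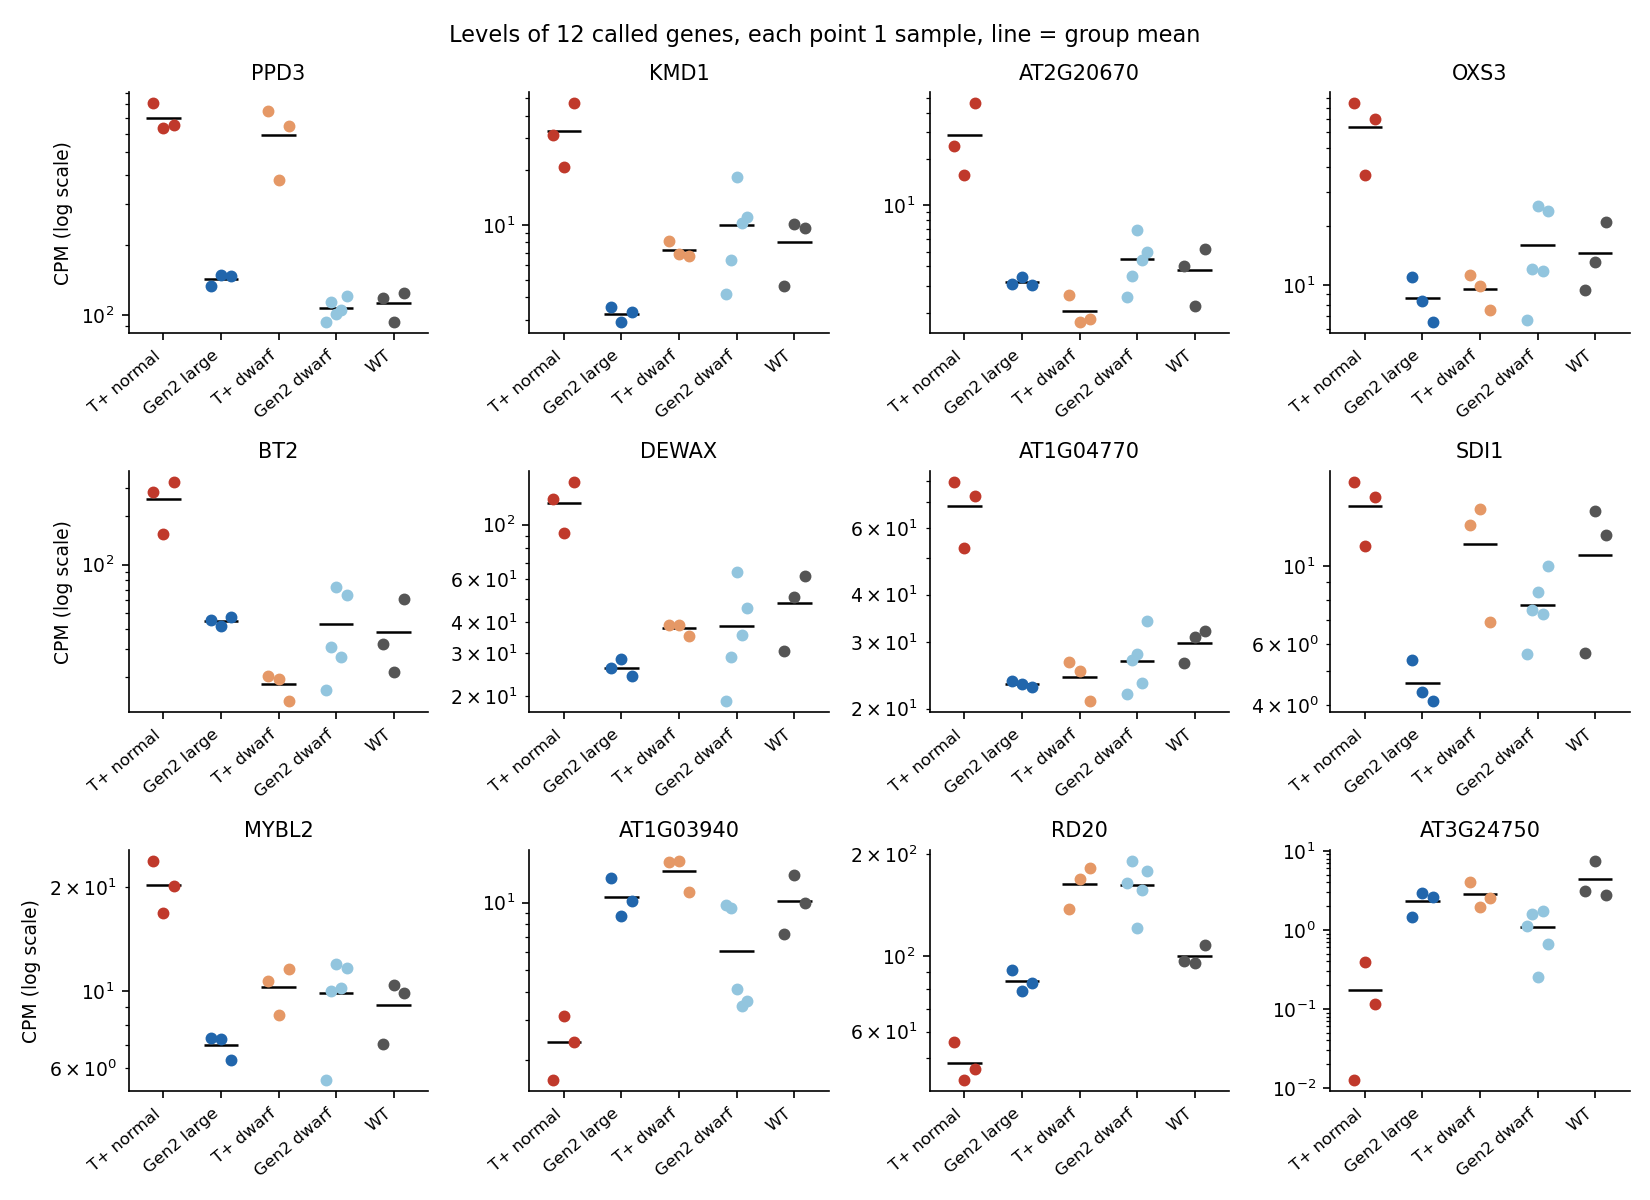
CPM on a log scale (y axis) of 12 called genes in T+ normal, Gen2 large, T+ dwarf, Gen2 dwarf and WT; each point is 1 sample and each line a group mean. In PPD3 both T+ groups are high, whereas in the other 11 genes T+ normal lies apart from Gen2 large and T+ dwarf was not called against Gen2 dwarf.

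The 8 lower genes were of smaller size apart from 2. AT3G24750, of unknown function, had 0.0125, 0.39 and 0.114 CPM in T+ normal, against 1.47, 2.96 and 2.59 CPM in Gen2 large. The lowest of these is under the 3 counts, or 0.0374 CPM, that a count of 0 would allow in that sample, so the fitted log2 difference of -3.77 ± 0.77 (adjusted p = 0.0459) is loosely fixed. AT1G03940, an acyltransferase family gene on the flavonoid list, had 1.62, 3.14 and 2.4 CPM in T+ normal, against 12.8, 8.67 and 10.2 CPM in Gen2 large (log2 difference -2.15, adjusted p = 0.0427). Both genes overlap an annotated neighbour.

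The other lower genes include the AP2/ERF factors CRF10 (-0.96) and AT2G44940 (-0.89), the GATA factor BME3, known from seed germination (-0.69), and RD20, a stress-induced caleosin of lipid droplets. RD20 (AT2G33380) had 56, 43.1 and 46.4 CPM in T+ normal, against 91.2, 78.8 and 83.4 CPM in Gen2 large. AT5G20190, a tetratricopeptide repeat protein, had 86.2, 86.1 and 87.8 CPM in T+ normal, against 132, 133 and 133 CPM in Gen2 large. Its 2 groups were each nearly constant and differed by a log2 value of -0.61 ± 0.12 (SE; adjusted p = 0.0384). None of the 8 lower genes was called in more than 1 of the 6 fits without 1 sample.

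The 300 bases upstream of the annotated gene start were read from the TAIR10.1 genome of RefSeq for 60 higher and 8 lower genes, because the higher genes moved together. They were searched on both strands for 4 motifs known from sugar, light and clock promoters, chosen with the calls known. The motif TATCCA, known from promoters of genes that respond to sugar starvation, was found upstream of 23 of the 60 higher genes (38.3%), of 1 of the 8 lower genes and of 16.5% of all 21691 windows. The GATA motif GATAAG was found in 17 of the 60 (28.3%) against 14.6% of all windows, the G-box CACGTG in 8 (13.3%) against 7.85%, and the evening element AAAATATCT in 5 (8.33%) against 2.9%. Of 29 TATCCA matches upstream of higher genes, 5 overlapped a GATAAG match. A match is a string of letters and not a shown binding site. Of the 5 genes with the largest increase, 4 had the motif. Their windows are printed 5′ to 3′ on the strand of the gene, with TATCCA or its reverse complement in capitals, from chr1:30241152-30241451 for KMD1 (plus strand), chr2:8913748-8914047 for AT2G20670 (minus strand), chr5:6414188-6414487 for AT5G19120 (plus strand) and chr4:17672354-17672653 for BT5 (minus strand).
KMD1: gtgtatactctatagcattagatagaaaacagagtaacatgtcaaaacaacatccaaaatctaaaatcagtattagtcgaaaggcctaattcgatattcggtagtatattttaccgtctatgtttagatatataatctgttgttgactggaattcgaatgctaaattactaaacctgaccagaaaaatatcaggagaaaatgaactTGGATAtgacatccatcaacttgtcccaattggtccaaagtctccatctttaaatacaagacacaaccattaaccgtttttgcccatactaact
AT2G20670: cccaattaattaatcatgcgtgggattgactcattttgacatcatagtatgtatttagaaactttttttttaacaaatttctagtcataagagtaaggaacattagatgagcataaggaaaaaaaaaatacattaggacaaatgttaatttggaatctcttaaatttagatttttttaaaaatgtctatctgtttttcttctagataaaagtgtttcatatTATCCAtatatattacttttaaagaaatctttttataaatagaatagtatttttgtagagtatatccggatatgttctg
AT5G19120: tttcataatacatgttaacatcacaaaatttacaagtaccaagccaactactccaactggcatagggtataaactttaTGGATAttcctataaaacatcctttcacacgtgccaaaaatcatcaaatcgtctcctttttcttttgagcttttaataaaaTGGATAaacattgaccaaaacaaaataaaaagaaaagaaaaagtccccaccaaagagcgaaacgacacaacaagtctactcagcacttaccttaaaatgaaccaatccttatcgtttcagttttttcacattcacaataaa
BT5: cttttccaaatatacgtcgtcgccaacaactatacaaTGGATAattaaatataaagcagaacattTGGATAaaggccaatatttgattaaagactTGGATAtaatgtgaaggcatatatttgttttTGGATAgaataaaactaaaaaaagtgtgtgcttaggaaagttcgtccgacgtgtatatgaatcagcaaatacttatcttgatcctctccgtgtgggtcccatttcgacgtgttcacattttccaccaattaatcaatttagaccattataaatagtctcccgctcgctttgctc
KMD1 and AT2G20670 each hold 1 match, AT5G19120 holds 2 and BT5 holds 4.

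Genes known to rise in darkness or under sugar starvation held 4 of the calls, the second largest increase among them. Of the list's 29 tested members 4 were called higher (AT2G20670, KMD4, BT5 and BT2) and 0 lower, where 0.276% of all tested genes were called higher, and the median log2 difference was 0.36 over the list against -0.004 over all genes. KMD4 (AT3G59940), a relative of KMD1, had 94.5, 69 and 141 CPM in T+ normal, against 24.9, 27 and 34.6 CPM in Gen2 large (log2 difference 1.82 ± 0.24, SE; adjusted p = 0.00219). Of the 29 members 21 were positive and 8 negative. Other dark-induced genes did not pass the test: DIN10 had a log2 difference of 1.18 (adjusted p = 0.158), SEN1 1.16 (adjusted p = 0.248) and GDH1 0.57 (adjusted p = 0.191). The lowest member was DIN2, a beta-glucosidase, with 0.0996, 3.42 and 4.66 CPM in T+ normal, against 3.26, 1.5 and 24.1 CPM in Gen2 large (-1.80, adjusted p = 0.61). Outside the list, the third KMD gene KMD3 was called (1.86, adjusted p = 0.0438), while KMD2 was not (0.28, adjusted p = 0.752). KMD3 was called in only 1 of the 6 fits without 1 sample. DUF506 proteins make up 3 of the called genes (AT2G20670, AT3G07350 and AT4G32480) out of 11 tested members of that family, and KMD genes 3 of 4, beside 0.276% called higher among all genes. The KMD and DUF506 families and the dark-induced genes were picked for naming after their values were seen. The list itself, like all 33 gene lists, was chosen with earlier results of these data known. Its count of calls beside the share of all genes is therefore not a test of the list. Without 1 sample, the list held 2 to 5 called members, AT2G20670 and KMD4 were called throughout, and the median was 0.20 without T+ normal 3.

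Sulfur-deficiency genes were the list with the highest median log2 difference, 0.68 over 17 tested members. Called higher were 4, beside 0.276% of all genes, and 0 were called lower. In 12 members the T+ normal samples all exceeded the Gen2 large samples and in 1 they all lay below, where 17.8% of all genes had groups without overlap in either direction. AT1G04770, a tetratricopeptide repeat protein on the list, had 79.3, 53 and 72.9 CPM in T+ normal, against 23.7, 23.2 and 22.8 CPM in Gen2 large. Its log2 difference of 1.56 ± 0.16 (SE; adjusted p = 8.85e-05) had the second smallest p after PPD3. SDI1 (AT5G48850), a sulfur-deficiency protein that holds back glucosinolate synthesis, had 17.4, 11.4 and 15.8 CPM in T+ normal, against 5.41, 4.37 and 4.11 CPM in Gen2 large (log2 difference 1.68, adjusted p = 0.0324). LSU2 (AT5G24660), a small protein induced by low sulfur, had 25.7, 20.3 and 28.1 CPM in T+ normal, against 13.3, 11.2 and 13.1 CPM in Gen2 large (0.98, adjusted p = 0.00734). APR3, which reduces activated sulfate, was the fourth (0.90, adjusted p = 0.0469).

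The relatives of these genes lay on the same side without a call: LSU3 had a log2 difference of 1.64 (adjusted p = 0.0609), LSU1 1.53 (adjusted p = 0.13), APR1 0.71 (adjusted p = 0.15) and APR2 0.56 (adjusted p = 0.239). The 3 negative members were the beta-glucosidases DIN2 (-1.80), also on the starvation list, and BGLU28 (-1.18, adjusted p = 0.634), and the sulfate transporter SULTR4;2 (-0.46, adjusted p = 0.285), of which SULTR4;2 had all T+ normal samples below Gen2 large. These 7 were named after their values were seen. For LSU2 the WT samples, at 20, 18.7 and 17.9 CPM, lay between the T+ normal and the Gen2 large samples. The list's median log2 difference against WT was 0.11 in T+ normal and -0.57 in Gen2 large, so Gen2 large lay further from WT. Of the 17 members 11 were positive in T+ normal against WT and 3 in Gen2 large against WT. AT1G04770 went the other way, as the 1 member called against WT, higher in T+ normal (0.534% of all tested genes). Both comparisons use the same WT samples. Sulfite reductase SIR, the enzyme after APS reductase, overlapped between the groups (0.04, adjusted p = 0.947), and was also named after its values were seen. Without 1 sample the list held 1 to 6 called members, AT1G04770 was called in every such fit, LSU2 in 5 of 6, and SDI1 and APR3 in 1 of 6. AT1G04770 and APR3 overlap an annotated neighbour.

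The flavonoid and anthocyanin list had the lowest median log2 difference of the 33 lists, -1.27 over 24 tested members. The repressor MYBL2 was called higher and AT1G03940 lower, and 23 of the 24 members had a negative difference, and in 22 the 3 T+ normal samples all lay below the 3 Gen2 large samples, where 17.8% of all genes had groups without overlap. MYBL2 (AT1G71030), a MYB protein that represses anthocyanin synthesis, had 23.8, 16.8 and 20.1 CPM in T+ normal, against 7.32, 7.27 and 6.3 CPM in Gen2 large. Its log2 difference was 1.54 ± 0.23 (SE; adjusted p = 0.0052), the opposite direction to the enzymes on the list. The members share regulators and are not independent of each other.

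Along the pathway, the T+ normal samples were low at each step, and none of these 4 genes passed the adjusted test. CHS, the entry enzyme, had 52.6, 115 and 69 CPM in T+ normal, against 171, 148 and 256 CPM in Gen2 large (log2 difference -1.28, adjusted p = 0.132). DFR, the first enzyme of the branch to anthocyanin, had 6.67, 11.4 and 20.6 CPM in T+ normal, against 62.3, 46.8 and 37.7 CPM in Gen2 large (-1.92, adjusted p = 0.0874). LDOX, the next enzyme, had 5.98, 9.27 and 13.3 CPM in T+ normal, against 43.3, 35.6 and 24.8 CPM in Gen2 large (-1.86, adjusted p = 0.0773). T+ normal 1 was the lowest of its group for all 3 enzymes. The MYB activator PAP1 had 13.5, 15 and 10.5 CPM in T+ normal, against 29.1, 32.2 and 22.7 CPM in Gen2 large (-1.11, adjusted p = 0.193). Without T+ normal 1 the list's median was -1.05, and it lay between -1.25 and -1.53 without any other sample. AT1G03940 was called in 1 of those 6 fits, and the members called lower came to 0 to 3. These 4 pathway genes were chosen after their values were seen.

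Against WT, 15 of the 24 members were called lower in T+ normal (0.802% of all tested genes) and 1 higher (MYBL2; 0.534% of all tested genes), with a median log2 difference of -1.72. In Gen2 large 0 members were called in either direction against WT, with a median of -0.27, where 0.120% of all genes were called higher and 0.843% lower. Both comparisons use the same 3 WT samples. Over all genes, the 290 calls of T+ normal against WT came to between 36, without WT 2, and 559, without WT 3, and the 209 calls of Gen2 large against WT to between 10, without Gen2 large 2, and 326, without WT 1.

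**Figure D3:**
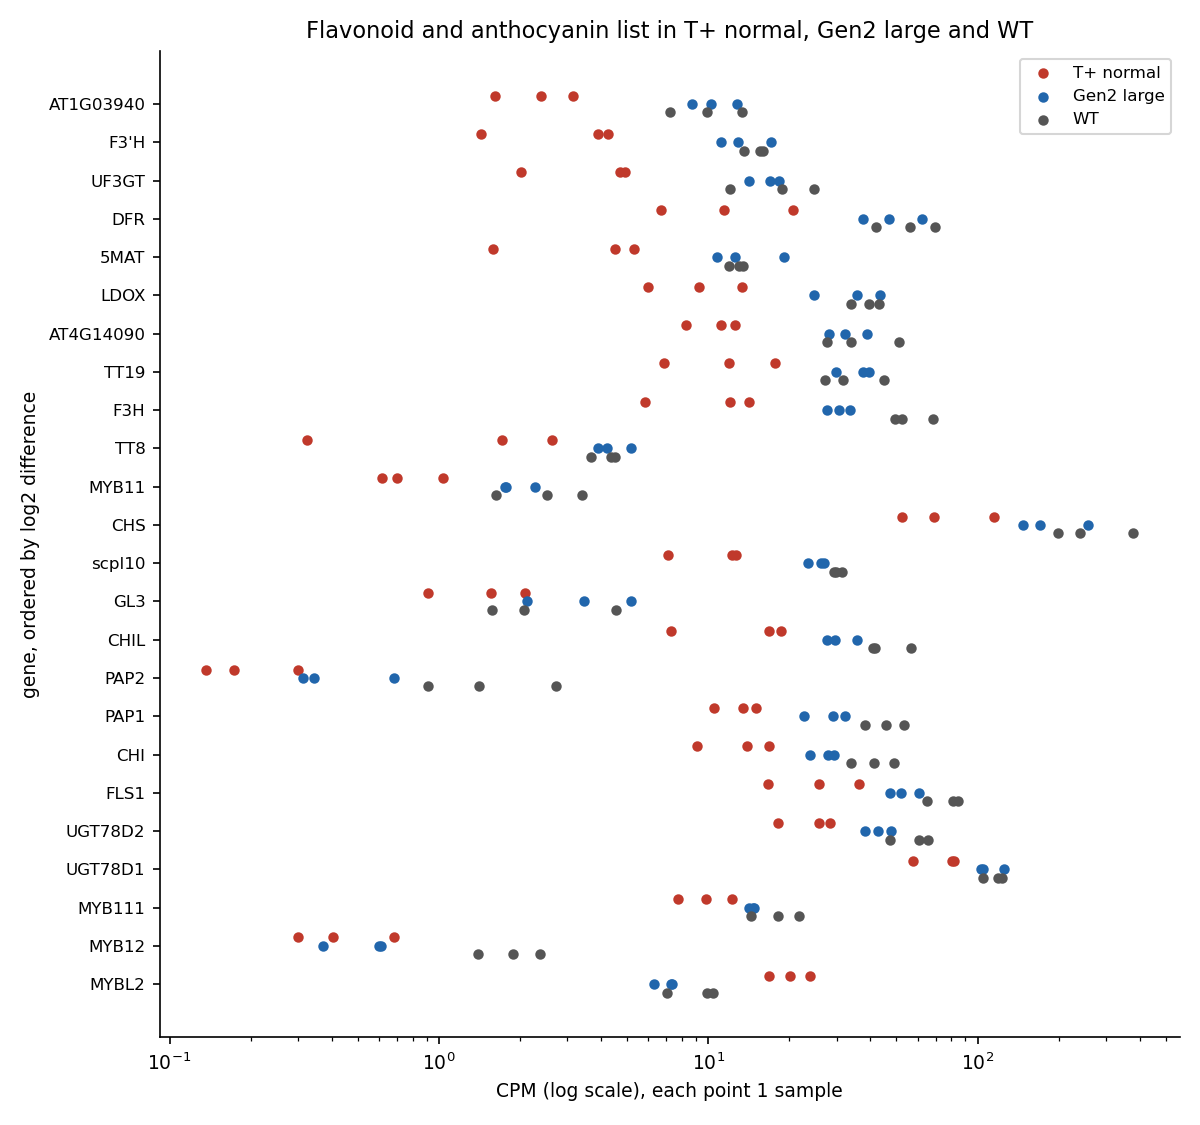
CPM on a log scale (x axis) of the 24 tested members of the flavonoid and anthocyanin list (y axis, ordered by log2 difference) in T+ normal (red), Gen2 large (blue) and WT (grey); each point is 1 sample. In 22 genes the red points all lie below the blue ones, and in MYBL2 all 3 lie above.

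Among surface lipid genes, the repressor DEWAX was called and the wax and cutin list held 0 calls. DEWAX (AT5G61590), an AP2/ERF factor that represses wax synthesis genes such as CER1, had 127, 92 and 149 CPM in T+ normal, against 26.1, 28.3 and 24.2 CPM in Gen2 large (log2 difference 2.22 ± 0.34, SE; adjusted p = 0.00587; not called in 2 of the 6 fits without 1 sample, with an adjusted p of up to 0.0544). CER1, which makes the alkanes of the wax layer, had 21.4, 52.2 and 41.9 CPM in T+ normal, against 105, 82.2 and 110 CPM in Gen2 large. The groups did not overlap, but the difference was not called (-1.36 ± 0.30, adjusted p = 0.0683). In T+ dwarf against Gen2 dwarf the log2 difference was -0.03 for DEWAX and 1.50 for CER1, neither called. A link between DEWAX and CER1 in these plants was not tested. Over the wax and cutin list, 0 of 22 members were called, the median was -0.40, 19 were negative, and 11 had all 3 T+ normal samples below Gen2 large, beside 17.8% of all genes without overlap in either direction.

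Defence and hormone genes gave single calls rather than list-wide ones. WRKY40, a WRKY factor of early immunity, had 15.5, 9.63 and 19.6 CPM in T+ normal, against 7.9, 5.35 and 4.69 CPM in Gen2 large (log2 difference 1.31, adjusted p = 0.0321). WRKY33, which controls camalexin synthesis, had 103, 71.4 and 110 CPM in T+ normal, against 46.6, 49.4 and 54.4 CPM in Gen2 large (0.92, adjusted p = 0.0253). They were the 2 called members of 18 on the pattern-triggered immunity list, beside 0.276% of all genes called higher. The median of that list was 0.37 with 17 positive. For WRKY40 the WT samples, at 14.9, 16.6 and 19.9 CPM, overlapped T+ normal and lay above Gen2 large. The ethylene response factors ERF1A (1.38, adjusted p = 0.0324) and ERF2 (1.07, adjusted p = 0.0469) were the 2 called of 22 ethylene genes, beside the same 0.276%. The median of the ethylene list was 0.16. IGMT1, a methyltransferase of indole glucosinolates, was the 1 called of 18 members of its list, beside the same 0.276% (1.46, adjusted p = 0.0134, list median 0.33). Against WT, T+ normal was not called for ERF1A (0.06), ERF2 (-0.08) or IGMT1 (0.29), whereas Gen2 large was called lower (-1.32, -1.15 and -1.17). WRKY33 was called on neither side against WT (0.45 and -0.47). Of the 18 members of the IGMT1 list, 7 were called lower in Gen2 large against WT (0.843% of all genes). In T+ normal 0 were (0.802% of all genes).

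Of the 25 salicylic acid genes 0 were called, while 24 had a positive difference and the median was 0.51. NPR3, a salicylic acid receptor, had the smallest p among them, with 69.1, 54 and 59.5 CPM in T+ normal and 41.5, 40.7 and 37.5 CPM in Gen2 large (0.61, adjusted p = 0.148). Against the same WT samples, the salicylic acid list had a median of -0.20 in T+ normal and -0.54 in Gen2 large. Of its 25 members 9 were positive in T+ normal against WT and 1 in Gen2 large against WT. The jasmonate lists had 0 calls as well, with medians of 0.03 for synthesis and -0.24 for response. Against WT the response list had a median of -1.35 in T+ normal and -1.12 in Gen2 large, and both values use the same WT samples. Of these immune and ethylene calls, WRKY33, ERF1A and ERF2 were lost in 5 of the 6 fits without 1 sample, WRKY40 and IGMT1 in 4.

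In the abscisic acid and drought list, 1 of 25 members was called higher and 1 lower, beside 0.276% and 0.0369% of all genes, and the median was -0.46. Of the 25 members 20 were negative, 12 had all T+ normal samples below Gen2 large and 2 had all of them above, where 17.8% of all genes had groups without overlap. RD26, a NAC factor of abscisic acid signalling, had 30.8, 17.7 and 36.4 CPM in T+ normal, against 14, 11.9 and 13.4 CPM in Gen2 large (log2 difference 1.11, adjusted p = 0.0335), and RD20, given above, was the lower one (-0.80, adjusted p = 0.0223). RD29B, a classic drought marker named after its values were seen, had a log2 difference of -2.24 that was not called (adjusted p = 0.0988). Of 28 clock genes 2 were called higher, with a median of 0.07 over the list. RVE1, a MYB-like factor that links the clock to auxin, had 4.43, 3.09 and 3.34 CPM in T+ normal, against 1.78, 1.85 and 1.59 CPM in Gen2 large (1.06, adjusted p = 0.0459). PRR5, a pseudo-response regulator of the clock, had 69.7, 75.4 and 84.2 CPM in T+ normal, against 47.8, 52.6 and 47.8 CPM in Gen2 large (0.63, adjusted p = 0.0459). The labels do not give the hour of harvest, and the part of the clock in these and the other calls was not tested. RD20, RD26, RVE1 and PRR5 were each lost in 5 of the 6 fits without 1 sample.

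Photosynthesis genes gave 1 call, PPD3. All 15 tested PsbP and PsbQ proteins had a positive difference, with a median of 0.20. Of 45 nuclear photosynthesis genes 0 were called, 43 were positive and the median was 0.29. Of 20 chlorophyll synthesis genes 0 were called, 19 were positive and the median was 0.24. CAO, chlorophyllide a oxygenase, had the smallest p of the chlorophyll list (0.56, adjusted p = 0.111). RCA, rubisco activase, had 4670, 3820 and 3640 CPM in T+ normal, against 2200, 2530 and 3400 CPM in Gen2 large (0.58, adjusted p = 0.217). In starch metabolism BAM9, a member of the beta-amylase family, was the 1 called of 24, beside 0.276% of all genes called higher. The median of the starch list was 0.003. BAM9 had 20.3, 19.8 and 19.3 CPM in T+ normal, against 10.8, 10 and 10.4 CPM in Gen2 large (0.93, adjusted p = 0.00654). Its T+ normal samples were nearly alike and all above Gen2 large. BAM9 was called in 5 of the 6 fits without 1 sample, and was lost without Gen2 large 2 (edgeR, adjusted p = 0.0629).

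The remaining lists gave 0 calls. Small negative medians were found for light stress (-0.29), heat shock (-0.15), cold response (-0.10), gibberellin and brassinosteroid (-0.09), oxidative stress and alternative respiration (-0.09), auxin response (-0.09), flowering time and phase change (-0.06) and senescence (-0.01). Their members of smallest p included the flowering repressor TEM2 (2.06, adjusted p = 0.083), the senescence regulator WRKY53 (1.29, adjusted p = 0.0782), the heat shock factor HSFB2A (0.68, adjusted p = 0.0858) and the light stress protein ELIP1 (-1.91, adjusted p = 0.14). The median log2 difference was 0.60 over 20 iron genes, 0.33 over 17 nitrogen genes, 0.29 over 18 phosphate starvation genes and 0.28 over 18 aliphatic glucosinolate genes. By smallest p these lists were led by the ferritin FER1 (-0.92, adjusted p = 0.154), the nitrate reductase NIA1 (0.83, adjusted p = 0.073), the phosphate transporter PHT1;4 (1.33, adjusted p = 0.152) and CYP79F2, an enzyme of glucosinolate synthesis (0.97, adjusted p = 0.158). FER1 went against the iron list, of which 15 of 20 members were positive. In T+ dwarf against Gen2 dwarf the iron list had a median of 0.92, with 13 of 20 positive. The median was -0.06 over 29 DNA methylation genes, of which AGO4 had the smallest p and a log2 difference of -0.26 (adjusted p = 0.509), -0.17 over 25 replication and cell cycle genes and -0.19 over 21 expansin and xyloglucan genes. Among the 3 growth-related lists of auxin, expansin and cell cycle genes, the smallest adjusted p was 0.117, for the expansin EXPA10 (32.5, 36.9 and 35.7 CPM in T+ normal, against 69.1, 48.7 and 56.1 CPM in Gen2 large).

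**Figure D4:**
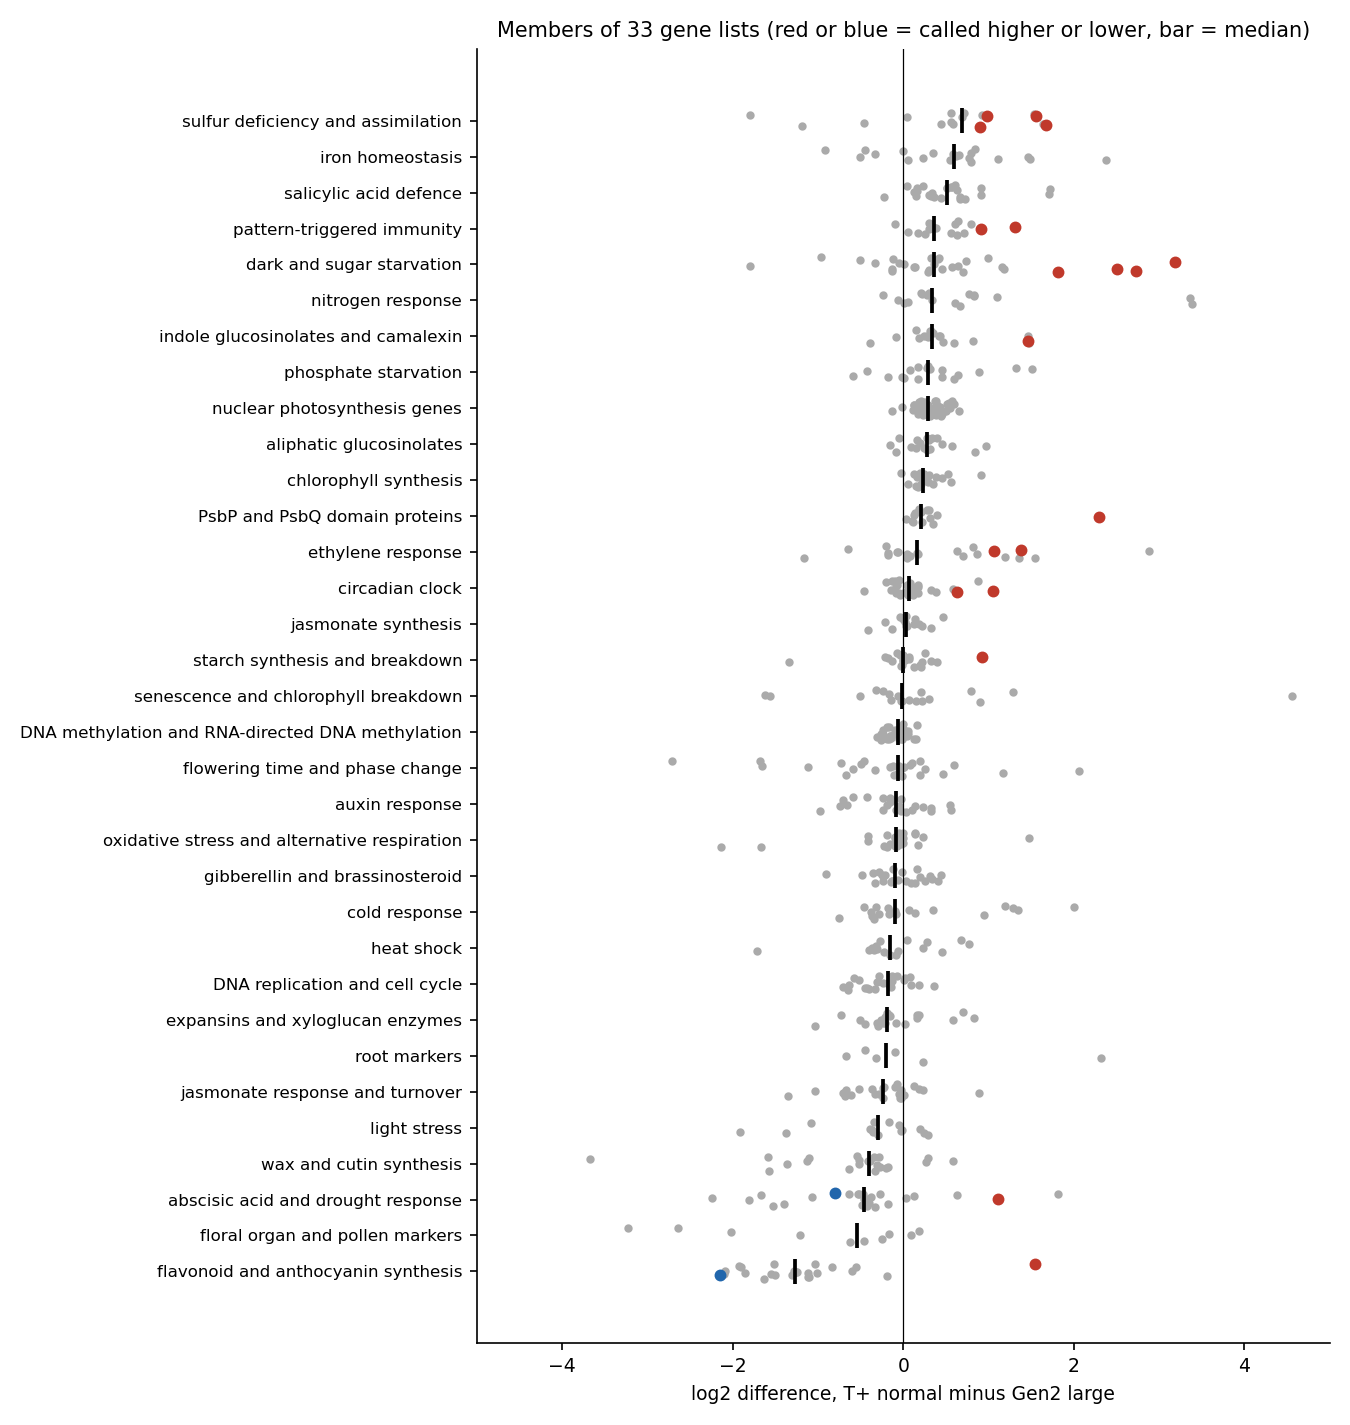
Log2 difference, T+ normal minus Gen2 large (x axis), of each tested member of 33 gene lists (y axis, ordered by median); grey points were not called, red ones were called higher, blue ones lower, and black bars are medians. The sulfur list has the highest median, 0.68, and the flavonoid list the lowest, -1.27.

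WT places the 2 sides of the difference. Of the 60 higher genes, 24 were called higher in T+ normal against WT (0.534% of all tested genes) and 9 were called lower in Gen2 large against WT (0.843% of all tested genes), and in 52 the WT mean lay between those of T+ normal and Gen2 large. Their median log2 difference was 0.80 in T+ normal against WT and -0.57 in Gen2 large against WT. AT3G23880, an F-box protein, had 7.06, 4.36 and 6.51 CPM in T+ normal, 1.75, 1.9 and 1.42 CPM in Gen2 large and 1.46, 1.27 and 1.05 CPM in WT, so the T+ normal side stood apart. CEJ1, an AP2/ERF factor, had 2.84, 2.07 and 3.76 CPM in T+ normal, 1.08, 0.992 and 1.31 CPM in Gen2 large and 3.61, 3.65 and 3.19 CPM in WT, so the Gen2 large side stood apart. Of the 8 lower genes 5 were called lower in T+ normal against WT (0.802% of all tested genes) and 0 were called in Gen2 large. The comparisons share samples with each other and are not independent, and AT3G23880 and CEJ1 were chosen after their values were seen. Both genes were called against Gen2 large in only 1 of the 6 fits without 1 sample.

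The same genotype labels were also compared in dwarf plants. T+ dwarf against Gen2 dwarf had 6 called genes (0.0276%), 3 higher and 3 lower, with PPD3 among the higher (592 ± 189 CPM in T+ dwarf, SD, n = 3, and 107 ± 10.8 CPM in Gen2 dwarf, SD, n = 5). PPD3 differed there by a log2 value of 2.47, and the difference between the 2 contrasts, -0.17 ± 0.24 (SE), was not called (adjusted p = 0.838). Of the 60 genes higher in the plants without dwarfing, PPD3 was the 1 called in dwarf plants, 26 had a positive sign there, and their median log2 difference was -0.07. The difference between the contrasts, (T+ normal minus Gen2 large) minus (T+ dwarf minus Gen2 dwarf), was called for 142 genes (0.654%), 87 positive (0.401%) and 55 negative (0.253%). Among them were 30 of the 60 higher and 5 of the 8 lower genes, whose own difference is part of this test. DESeq2 called 266 genes in T+ dwarf against Gen2 dwarf and 646 for the difference between contrasts, and a fit of only the compared groups called 45 in T+ dwarf against Gen2 dwarf. Without 1 sample the 142 came to between 16 (without Gen2 large 2) and 291 (without Gen2 dwarf 1), and the 6 dwarf calls to between 1 (without T+ dwarf 2) and 10 (without Gen2 dwarf 2).

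Several genes differed between the contrasts, and those given here were picked in part by this same test. AT2G20670 differed by 4.30 ± 0.53 between the contrasts (adjusted p = 0.00196), with a log2 difference of 3.18 in plants without dwarfing and -1.11 in dwarf plants. AT1G04770 differed by 1.70 (adjusted p = 0.00196), with 1.56 in plants without dwarfing and -0.15 in dwarf plants. On the negative side, CER1 differed by -2.87 (adjusted p = 0.00641), with -1.36 in plants without dwarfing and 1.50 in dwarf plants. GDH3, a glutamate dehydrogenase, differed by 2.55 (adjusted p = 0.00771), most of it from dwarf plants, where its log2 difference was -1.79 against 0.75 in plants without dwarfing. In the flavonoid list 9 of 24 members were called negative and 1 positive in the difference between contrasts, beside 0.253% and 0.401% of all genes. All 24 had a positive log2 difference in dwarf plants. In the wax and cutin list 3 of 22 were called negative, beside the same 0.253%, and 21 had a positive difference in dwarf plants. For both lists the non-dwarf difference described above is part of the difference between contrasts.

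**Figure D5:**
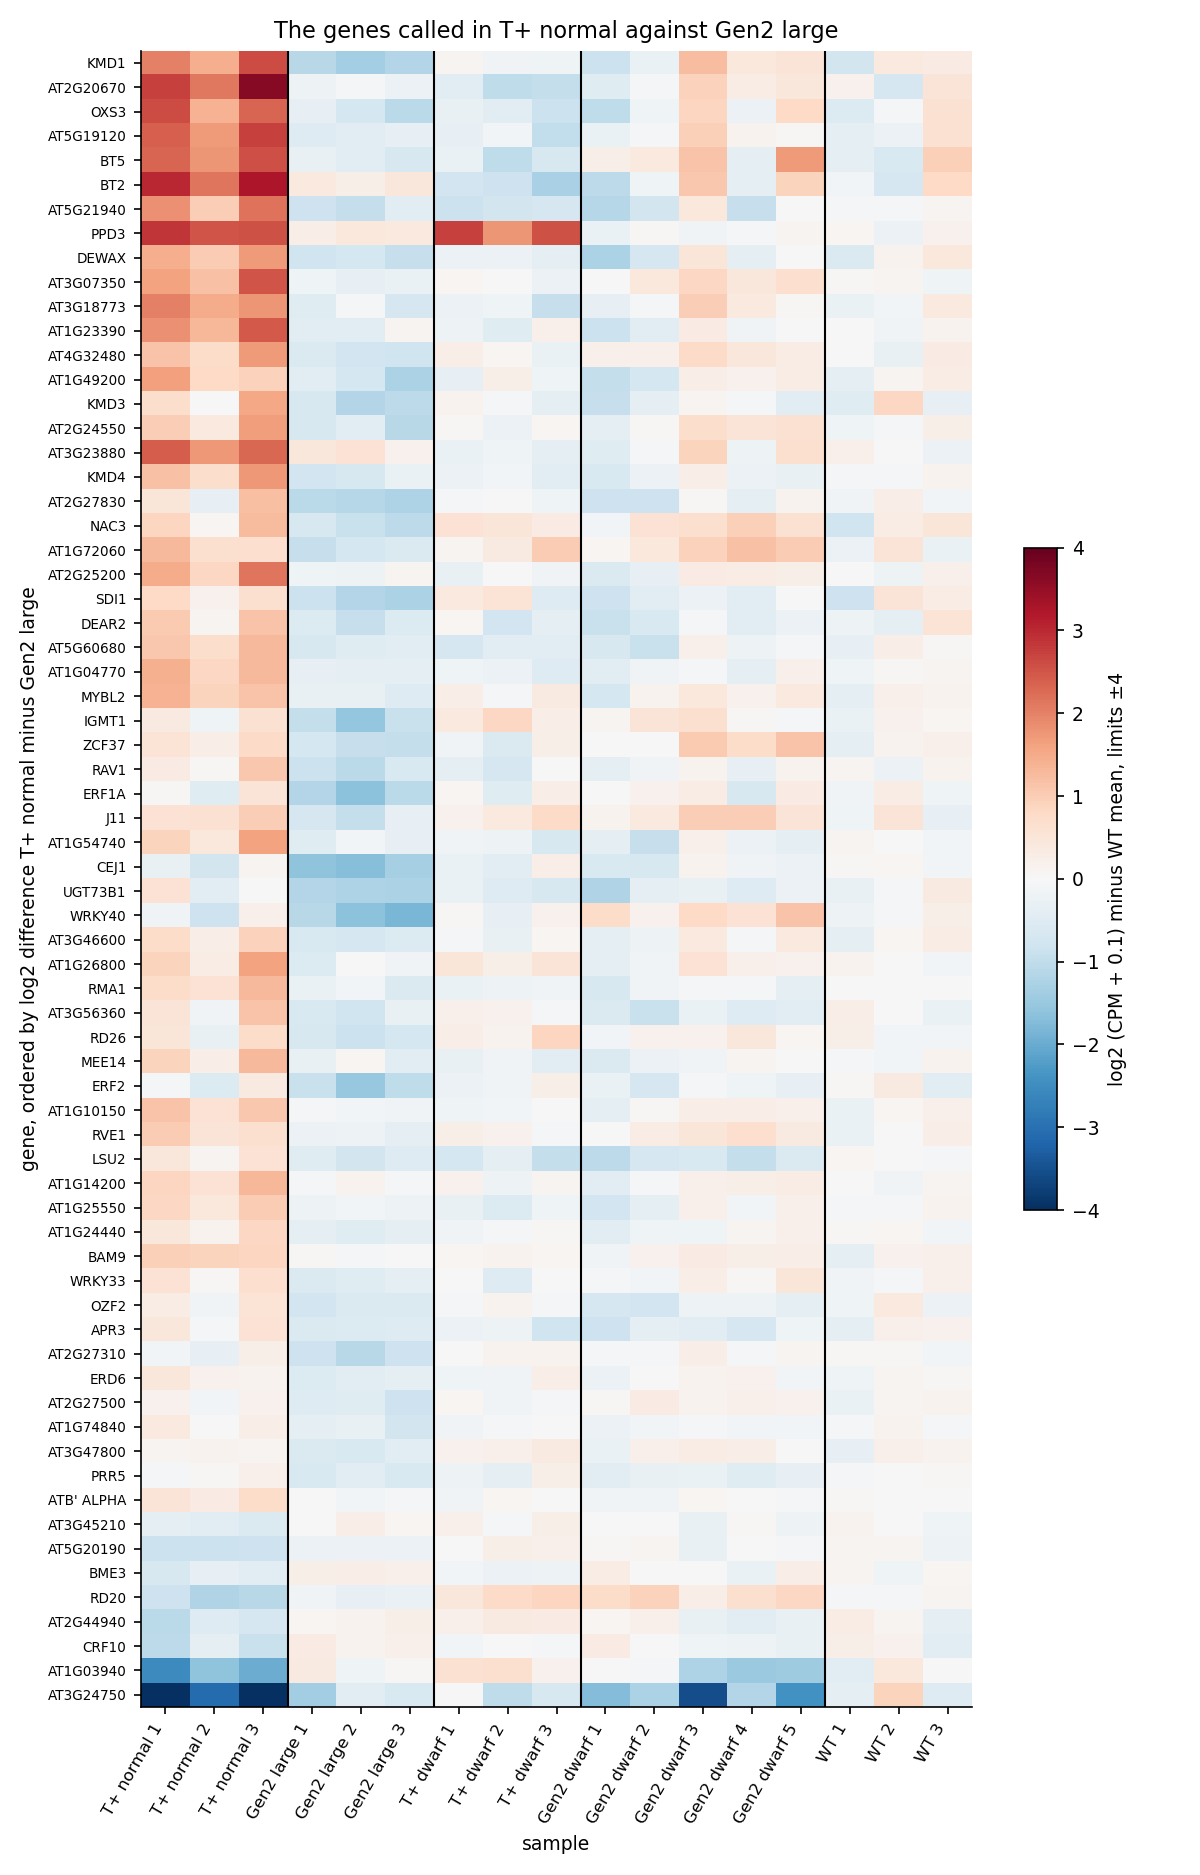
Log2 of CPM plus 0.1 minus the WT mean (colour, limits -4 and 4) for the 68 called genes (rows, ordered by log2 difference T+ normal minus Gen2 large) in 17 samples (columns). The 3 T+ normal columns are redder than the 3 Gen2 large columns in the upper 60 rows, and PPD3 is the 1 row of these 60 called in T+ dwarf against Gen2 dwarf.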

How the data were processed

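RNA was sequenced from 20 aboveground samples taken at bolting, 3 each of T+ normal and Gen2 large in the comparison described here. Per the submitters' processing notes, reads went through Trim Galore 0.4.1 and STAR 2.7.0a on TAIR10, and the authors deposited raw read counts per gene; the counting program, its annotation release and its strand setting are not stated. The kit does not mark strand, so reads of overlapping genes cannot be told apart. The 5 summary lines that name no gene entered neither the library sizes nor the tests; relative to the gene counts, reads outside genes made up 0.776% to 1.14% and ambiguous reads 0.264% to 0.36%. From the counts, edgeR 4.0.16 (R 4.3.3; TMM scaling; filterByExpr with a minimum count of 10) fitted all 20 samples with a term per group and no covariate, and its robust quasi-likelihood test was adjusted by Benjamini-Hochberg over 21703 genes; a gene is called at an adjusted p below 0.05. The biological coefficient of variation was 0.225 and the residual degrees of freedom 14. The test gives no SE, so each SE of a log2 difference was derived as its size divided by the square root of the F statistic. CPM values are scaled by the TMM factors, with 3 counts as the floor of a sample. Counting error is small at this depth, and floors cover counting error only. Symbols, coordinates and promoter windows came from RefSeq TAIR10.1, which matched 32548 of 34262 loci. Replicates were checked for libraries deposited in duplicate, and none was found. The text names PPD3 and MSH1; the 12 largest increases and decreases among called genes with groups that do not overlap and a mean of at least 1 CPM; up to 4 called members of each list, or, for some lists without a call, the member of smallest p; and up to 8 genes of the difference between contrasts; others are said to be chosen after their values were seen. The members and the 33 gene lists were chosen with earlier results of these data known. The code was tested on simulated counts. Alternatives were RLE scaling, no filter, DESeq2 1.42.0, only the compared groups, a replicate block and leaving out each sample.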

Additional observations from a re-analysis of the deposited data

Results flagged for a closer look

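In 29 of the genes that the naming rule picked, the log2 difference T+ normal minus Gen2 large departed from the log2 difference T+ dwarf minus Gen2 dwarf by the test of the difference itself (edgeR, adjusted p below 0.05), and the values below are the first minus the second. Among the regulatory and starvation-induced genes the values were 4.30 for AT2G20670, 4.17 for BT5, 3.81 for KMD1, 3.74 for BT2, 3.62 for OXS3, 3.44 for AT5G19120, 2.90 for AT5G21940, 2.90 for AT3G18773, 2.77 for AT3G07350, 2.36 for AT4G32480, 2.26 for DEWAX, 2.14 for AT1G23390 and 1.88 for KMD4. Among sulfur, nitrogen and starch genes they were 1.70 for AT1G04770, 1.41 for the nitrate reductase NIA1, 2.55 for GDH3 and 1.01 for BAM9. The immune, clock and anthocyanin regulators gave 2.06 for WRKY40, 1.22 for WRKY33, 1.05 for NPR3, 1.32 for RVE1 and 1.48 for MYBL2. Negative values were found for AT3G24750 (-5.20), AT1G03940 (-3.34), CER1 (-2.87), the cytochrome P450 gene CYP77A4 (-2.09), AT2G44940 (-1.32), AT3G45210 (-0.83) and AT5G20190 (-0.80). Some genes named outside the rule also passed: AT3G23880 (2.39), AT5G60680 (1.83), RMA1 (1.18), DFR (-2.84), LDOX (-2.56) and PAP1 (-2.02). The non-dwarf difference is part of each value, and most of these genes were named for it.

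One sample lay far from the others of its group: AT5G19120 had 28.2 CPM in Gen2 dwarf 3, the highest of the 5 Gen2 dwarf samples. The check covered only the 5 Gen2 dwarf samples, for 62 genes. Of these 62 sets 1 met the criterion for a distant sample, where chance gives about 1 in 20. T+ normal and Gen2 large, with 3 samples each, were not checked in this way.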

How the results depend on the processing

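The 68 calls of T+ normal against Gen2 large became 81 with RLE scaling, 68 without the filter on low counts (61 shared), 376 with DESeq2 (all 68 among them) and 43 with only the compared groups in the fit (26 shared); without 1 sample they ranged from 13, without Gen2 large 2, to 167, without T+ normal 2. For T+ dwarf against Gen2 dwarf the 6 calls became 266 with DESeq2, 45 with only the compared groups and 1 to 10 without 1 sample. The 142 calls of the difference between contrasts became 646 with DESeq2 and 16 to 291 without 1 sample. The 290 calls of T+ normal against WT became 1166 with DESeq2, 52 with only the compared groups and 36 to 559 without 1 sample, and the 209 calls of Gen2 large against WT became 743, 119 and 10 to 326. The causes of these changes were not tested. The fits of the compared groups alone also had fewer samples to set the spread. MSH1 changed sign without T+ normal 3 (0.15) and without Gen2 large 3 (0.03), and was -0.19 to 0.15 over the 6 fits. BT2 and BT5 were not called without the filter (adjusted p = 0.0632 and 0.0579). Of the values for named genes, 111 lost and 5 gained a call without 1 sample and 254 did neither; under the other alternatives 29 lost and 19 gained one. With a replicate block the calls came to 110 in T+ normal against Gen2 large (58 shared), 2 in T+ dwarf against Gen2 dwarf and 93 in the difference between contrasts; same-numbered samples of T+ normal and Gen2 large correlated at -0.206, -0.113 and -0.154, so the numbers do not pair them. RLE scaling moved the median of all genes by 0.0092. Depth limits AT3G24750, which is under the floor of 3 counts in T+ normal 1.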
